A study of Oryctolagus cuniculus with 6 samples.

Results

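NF-κB feedback and signalling genes were examined in cultured rabbit limbal stem cells (LSCs), the stem cells at the rim of the cornea that renew its epithelium. The set held 10 genes, chosen by name from the 22190 genes of the count table, and all 10 passed the filter on low counts. They are 3 subunit genes of the transcription factor (NFKB1, NFKB2 and RELB), 3 inhibitor genes (NFKBIA, NFKBIE and NFKBIZ), the feedback enzyme gene TNFAIP3, and the signalling genes BIRC3, IRAK2 and TRAF1. RNA-seq had been performed on 3 libraries of a fresh group, from explants of fresh limbal tissue, and 3 of a preconditioned group. For the latter, whole rabbit corneas had been kept in liquid nitrogen for a week in a freezing medium with serum, dimethyl sulfoxide and the cytokine IL-1β, and were then thawed and explanted. Both groups were outgrowths of limbal explants in keratinocyte culture medium, so the RNA reports on cells that grew after the exposure. Freezing and IL-1β came together and cannot be told apart here. The strain, age and number of rabbits and the time from thawing to harvest are not given in the sources used here, and nothing says that libraries of a group came from separate animals. The p-values therefore measure the spread between these libraries, which may be technical.

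NF-κB is a family of dimeric transcription factors held in the cytoplasm by IκB proteins. When IL-1β or TNF binds its receptor, adaptors and ubiquitin ligases activate the IκB kinases, IκB is degraded and the dimers enter the nucleus. NF-κB then switches on genes of inflammation and survival together with its own brakes, such as the IκBα gene NFKBIA and the A20 gene TNFAIP3, which makes these genes common readouts of the pathway. In the corneal epithelium, IL-1 is an early signal of injury.

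The libraries held 31952352 to 34327534 counts on genes. Preconditioned replicate 1 stood between the groups on the first principal component, at 2.27, with the fresh libraries between −39.3 and −29.5 and the other preconditioned libraries at 44.2 and 53.1. Values without it are therefore given where they changed a call of the 10 genes or moved their fold change by over 1.5 times. Levels are in CPM, each count divided by the library's TMM-scaled total and put on a common scale. A gene was called where edgeR's quasi-likelihood test gave an adjusted p (Benjamini-Hochberg, over the 15029 tested genes) no larger than 0.05 and the absolute log2 fold change was at least 1. The label of the cells was checked against 12 markers of corneal and limbal epithelium, of which 10 were matched by symbol (not KRT12 and KRT14) and summed to 11687 to 17915 CPM per library. Among them, KRT5 had at least 222825 counts in every library, whereas KRT15, a marker of limbal basal cells, had 30 to 319 counts. KRT3, the marker of differentiated corneal epithelium, varied from 239 to 2655 CPM and overlapped between the groups. EPCAM and ITGB4 lay higher in the preconditioned group and TP63 lower without overlap in CPM, where 36.7% of all tested genes did not overlap. The log2 fold change was 0.50 for EPCAM (adjusted p = 0.0601 from edgeR) and 0.63 for ITGB4 (adjusted p = 0.0715). TP63, the stem cell marker, had 237 ± 10.1 CPM in the fresh and 139 ± 38.9 CPM in preconditioned libraries (SD, n = 3 each), without overlap (log2 fold change −0.77, adjusted p = 0.0588 from edgeR). Without preconditioned replicate 1, TP63 was called lower (−1.03, adjusted p = 0.00398) and PAX6, the eye development gene of the same list, was called higher (1.07, adjusted p = 0.00602).

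The 10 genes did not move as a block. NFKB1, the gene of the p50 subunit, fell by 52.5% in the preconditioned group, and NFKBIZ, the gene of a nuclear IκB protein, was 1.67-fold higher there. The other 8 genes, which include NFKBIA and TNFAIP3, did not pass the adjusted p cutoff. Of the 10 genes, 1 was called (NFKB1), where 2.29% of all tested genes were. With the adjusted p cutoff alone 2 passed (NFKB1 and NFKBIZ), where 5.08% of all tested genes did. For 4 of the 10 there was no overlap between the groups, where this held for 36.7% of all tested genes, so that the share was near the background. Log2 fold changes were below 0 for 7 of the 10 and for 49.5% of all tested genes, with a median of −0.27 for the set and 0.01 for all tested genes. This median and the directions depended on the scaling. With library size alone, the median log2 fold change was −0.44 for the set and −0.16 for all genes, and 8 of the 10 were below 0.

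**Figure D1:**
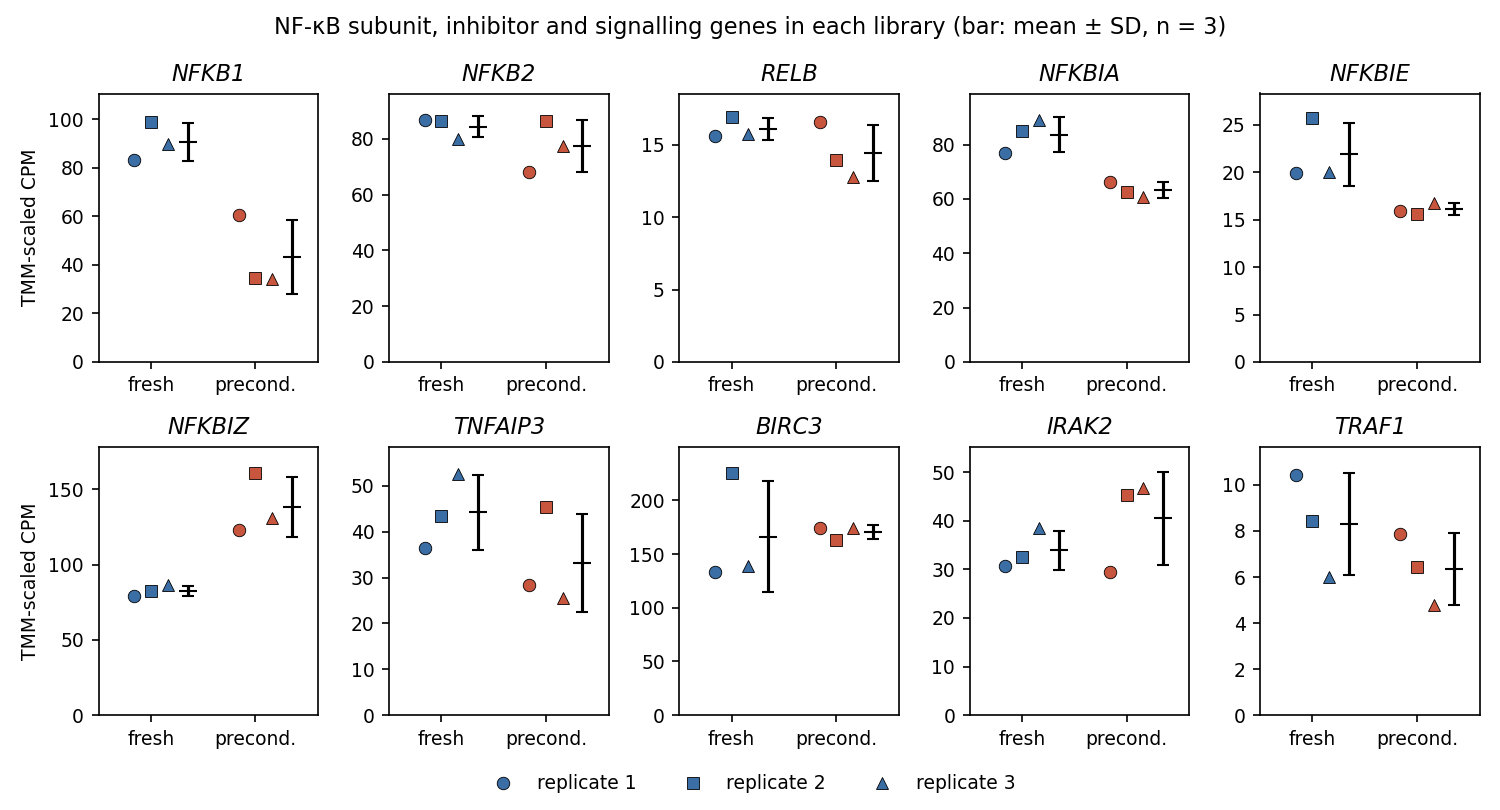
TMM-scaled CPM of each of the 10 genes in each library, with fresh libraries in blue, preconditioned libraries in red, marker shapes for the replicate numbers and black bars for the mean ± SD (n = 3). The 3 preconditioned libraries lie below all fresh libraries for NFKB1, NFKBIA and NFKBIE and above them for NFKBIZ, and the groups overlap for the other 6 genes.

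The subunit genes were compared first. NFKB1 (NCBI gene 100349426) encodes p105, the precursor of the p50 subunit. It was expressed at 83.3, 98.9 and 89.8 CPM in the fresh libraries and at 60.6, 34.6 and 34.0 CPM in preconditioned replicates 1, 2 and 3. The groups did not overlap, and preconditioned replicate 1 lay nearest to the fresh libraries. Its mean fell from 90.7 ± 7.84 to 43.1 ± 15.2 CPM (SD, n = 3 each). The log2 fold change was −1.07 (95% interval −1.63 to −0.52, adjusted p = 0.0498 from edgeR). DESeq2, which called 7.78% of the genes it tested, gave an adjusted p of 0.00139. Both values from edgeR lie close to their cutoffs. Without preconditioned replicate 1 the log2 fold change was −1.41 (adjusted p = 0.00343), and without any 1 of the other 5 libraries the call was lost, with log2 fold changes from −1.13 to −0.93 and adjusted p values from 0.114 to 0.165. Against a log2 fold change of 1 (glmTreat), NFKB1 was not called either (adjusted p = 1).

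NFKB2 (NCBI gene 100339928) encodes p100, which is cut to p52 in the noncanonical branch of the pathway. Its level was 86.6, 86.4 and 80.0 CPM in the fresh libraries and 68.1, 86.5 and 77.5 CPM in the preconditioned libraries. The ranges overlapped, and the log2 fold change was −0.12 (95% interval −0.40 to 0.15, adjusted p = 0.505 from edgeR), and after leaving out 1 library it ranged from −0.21 without preconditioned replicate 2 to −0.051 without preconditioned replicate 1. RELB (NCBI gene 103346323), the partner of p52, had 15.6, 17.0 and 15.8 CPM in the fresh group and 16.6, 13.9 and 12.8 CPM in the preconditioned group. These ranges overlapped as well, with a log2 fold change of −0.16 (95% interval −0.53 to 0.22, adjusted p = 0.535), and after leaving out 1 library it ranged from −0.28 without preconditioned replicate 1 (adjusted p = 0.198) to −0.075 without preconditioned replicate 3 (adjusted p = 0.817). On the deposited FPKM scale, which is not corrected by TMM, the groups did not overlap for either gene, so 6 of the 10 genes were separated on that scale, where this held for 38.8% of all tested genes.

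The other subunit genes, RELA and REL, differed little between the groups. RELA, which encodes the p65 subunit with the transactivation domain, had 98.9 ± 2.098 CPM in the fresh and 104 ± 9.98 CPM in preconditioned libraries (SD, n = 3 each). Its log2 fold change was 0.08 (95% interval −0.17 to 0.33). REL, which encodes c-Rel, had a log2 fold change of −0.03 (95% interval −0.31 to 0.26). Neither passed the test (adjusted p = 0.657 and 0.903 from edgeR). Subunit genes were set side by side in FPKM, the deposited level per length. NFKB1 held 22.7% to 26.0% of the summed FPKM of the 5 subunit genes in the fresh libraries. It held 18.8% in preconditioned replicate 1 and 11.0% and 10.4% in replicates 2 and 3, while RELA held 36.6% to 39.3% and 44.1% to 50.9%. A ratio of counts within a library needs no scaling between libraries. The ratio of NFKB1 to RELA was 0.840, 1.02 and 0.891 in the fresh and 0.615, 0.351 and 0.294 in the preconditioned libraries, which did not overlap. This ratio and those given for NFKBIZ were chosen after the values were seen and were not tested.

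**Figure D2:**
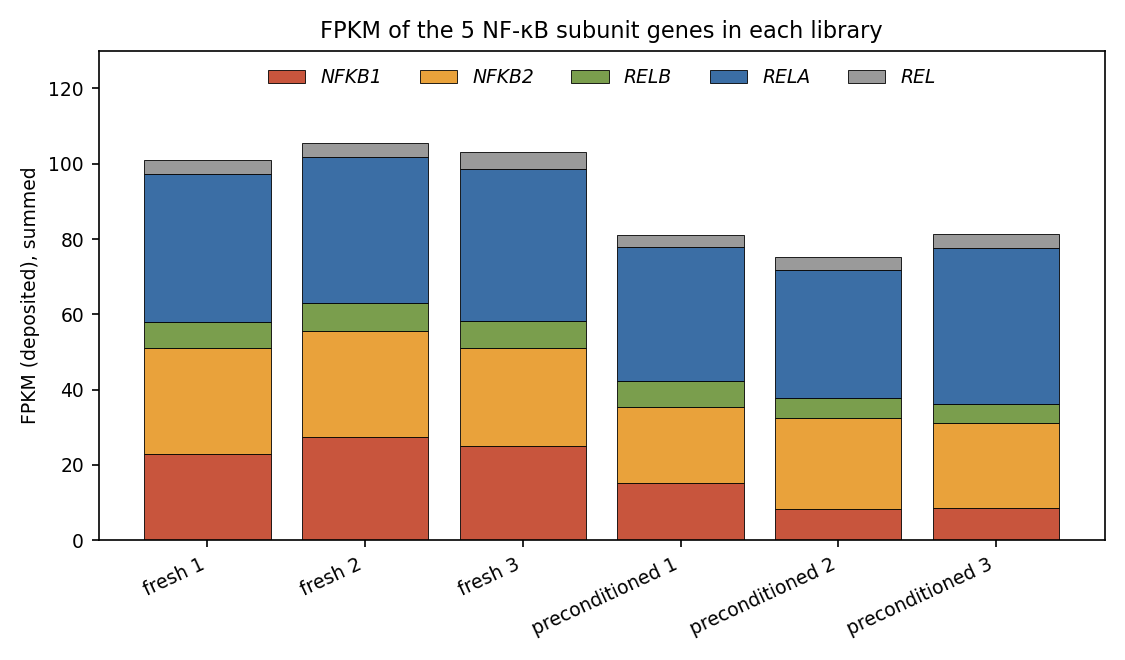
Deposited FPKM of the 5 NF-κB subunit genes, stacked for each library. FPKM is not corrected by TMM, whose factors were 1.055 to 1.066 in the fresh and 0.914 to 0.965 in the preconditioned libraries. It therefore puts the preconditioned libraries lower, relative to the fresh ones, than TMM-scaled CPM does. The summed FPKM was 101 to 106 in the fresh and 75.2 to 81.4 in the preconditioned libraries, and the NFKB1 segment is the one that shrank most, from 25.1 ± 2.22 to 10.7 ± 4.01 FPKM (SD, n = 3 each).

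The inhibitor genes differed in direction. NFKBIA (NCBI gene 100357341) encodes IκBα, the main cytoplasmic inhibitor and a fast target of NF-κB. Its level was 76.9, 85.1 and 89.2 CPM in the fresh libraries and 66.3, 62.7 and 60.6 CPM in the preconditioned libraries. All preconditioned libraries lay below all fresh ones, but the difference missed the cutoff, with a log2 fold change of −0.41 (95% interval −0.65 to −0.16, adjusted p = 0.0607 from edgeR). The adjusted p was 0.0284 with DESeq2 and 0.0277 without preconditioned replicate 1, and the highest value after leaving out a library was 0.193.

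NFKBIE (NCBI gene 100359054) encodes IκBε, a cytoplasmic inhibitor of the same kind. It had 20.0, 25.7 and 20.0 CPM in the fresh group and 15.9, 15.6 and 16.8 CPM in the preconditioned group. The groups did not overlap, and the log2 fold change was −0.44 (95% interval −0.81 to −0.08, adjusted p = 0.111). In the list of other inhibitors, NFKBIB, NFKBID and the repressor gene NKRF had log2 fold changes between −0.26 and −0.12, and none passed the test. NFKBID had the lowest of these (adjusted p = 0.505).

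NFKBIZ (NCBI gene 100356473) encodes IκBζ, a nuclear IκB protein that is induced by IL-1 and acts with p50 as a coactivator of some NF-κB targets. It had 79.3, 82.1 and 86.2 CPM in the fresh libraries and 123, 161 and 131 CPM in the preconditioned libraries. Every preconditioned library lay above every fresh one. The means were 82.5 ± 3.49 and 138 ± 20.0 CPM (SD, n = 3 each). This was a 1.67-fold difference, or 0.74 on the log2 scale (95% interval 0.44 to 1.04). NFKBIZ passed the adjusted p cutoff but not the fold cutoff (adjusted p = 0.0373 from edgeR and 0.000315 from DESeq2). Leaving out 1 library gave log2 fold changes from 0.62 to 0.81 and adjusted p values from 0.00782, without preconditioned replicate 1, to 0.145.

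Within libraries, the ratio of NFKBIZ to NFKBIA counts was near 1 in the fresh group and higher in the preconditioned group. Counts are not divided by gene length, so only the difference between the groups can be read. Per length, NFKBIA stood above NFKBIZ in the fresh group, at 56.5 against 40.8 FPKM. The ratio of NFKBIZ to NFKBIA was 1.03, 0.965 and 0.966 in the fresh libraries and 1.86, 2.56 and 2.16 in the preconditioned libraries. The ratio of NFKBIZ to NFKB1 was 0.830 to 0.960 and 2.03 to 4.65. Neither ratio overlapped between the groups, and the ratio to NFKB1 was lowest in replicate 1 among the preconditioned libraries.

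**Figure D3:**
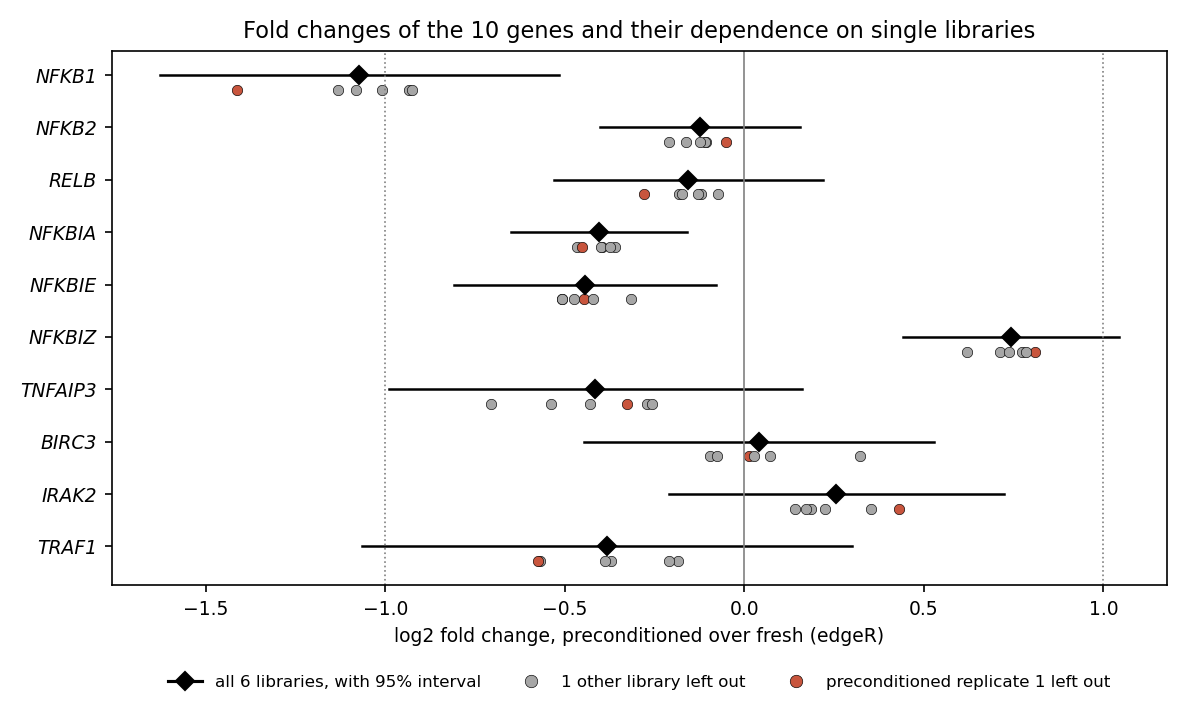
Log2 fold changes of the preconditioned over the fresh group from edgeR (diamonds, with 95% intervals), and the same after leaving out preconditioned replicate 1 (red) or any other library (grey). Dotted lines mark the fold cutoff of 1 on the log2 scale. NFKB1 moved furthest when preconditioned replicate 1 was left out, to −1.41, and NFKBIZ stayed between 0.62 and 0.81.

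TNFAIP3 (NCBI gene 100350259) encodes A20, a ubiquitin-editing enzyme that shuts off signalling from the receptors. It was expressed at 36.5, 43.4 and 52.7 CPM in the fresh and at 28.4, 45.4 and 25.7 CPM in the preconditioned libraries. The ranges overlapped through preconditioned replicate 2. The log2 fold change was −0.42 (95% interval −0.99 to 0.16, adjusted p = 0.287 from edgeR), so that an interval from a fall by about the fold cutoff to a small increase is compatible with these libraries. It was −0.71 without preconditioned replicate 2, −0.27 without fresh replicate 3 and −0.26 without preconditioned replicate 3.

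The 3 signalling genes overlapped between the groups. BIRC3 (NCBI gene 100340120) encodes cIAP2, a ubiquitin ligase of the TNF receptor complex and a target of NF-κB. It had 134, 226 and 139 CPM in the fresh group and 174, 163 and 174 CPM in the preconditioned group. Fresh replicate 2 was the highest of all, and the preconditioned libraries lay between the fresh ones (log2 fold change 0.04, 95% interval −0.45 to 0.53, adjusted p = 0.915 from edgeR). It was 0.013 without preconditioned replicate 1 and 0.32 without fresh replicate 2.

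IRAK2 (NCBI gene 103345503) encodes a kinase-like adaptor that prolongs signalling from IL-1 receptors. It had 30.7, 32.6 and 38.4 CPM in the fresh and 29.4, 45.2 and 46.8 CPM in the preconditioned libraries. Preconditioned replicate 1 was the lowest library and the other 2 were the highest. The log2 fold change was 0.26 (95% interval −0.21 to 0.72, adjusted p = 0.413 from edgeR), and after leaving out 1 library it ranged from 0.14 without preconditioned replicate 3 (adjusted p = 0.710) to 0.43 without preconditioned replicate 1 (adjusted p = 0.0536).

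TRAF1 (NCBI gene 100338847) encodes an adaptor of TNF receptors and is a target of NF-κB. It was the least abundant of the 10, at 10.4, 8.44 and 6.02 CPM in the fresh and 7.88, 6.43 and 4.77 CPM in the preconditioned libraries. The ranges overlapped (log2 fold change −0.38, 95% interval −1.07 to 0.30, adjusted p = 0.404 from edgeR). When each library was left out it lay between −0.58, without preconditioned replicate 1 (adjusted p = 0.197), and −0.19, without fresh replicate 1 (adjusted p = 0.751).

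The order of the levels per length was described in FPKM within each group. In the fresh group, NFKBIA was highest at 56.5 ± 4.52 FPKM (SD, n = 3), followed by NFKBIZ at 40.8 ± 1.93, BIRC3 at 28.8 ± 8.999, NFKB2 at 27.4 ± 1.11 and NFKB1 at 25.1 ± 2.22. IRAK2, NFKBIE and TNFAIP3 followed with means between 11.3 and 13.04 FPKM, then RELB at 7.17 ± 0.339 and TRAF1 at 1.65 ± 0.433. The ranges of neighbours overlapped from NFKBIZ down to NFKB1 and from IRAK2 down to TNFAIP3. In the preconditioned group NFKBIZ was first at 60.6 ± 6.99 FPKM and NFKBIA second at 37.9 ± 2.38, and their ranges did not overlap. NFKB1 was sixth there, after IRAK2, and its range of 8.25 to 15.3 FPKM overlapped with that of both IRAK2 and NFKBIE.

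Genes upstream of NF-κB were counted in lists by role. Of 8 kinase genes and 23 tested genes of adaptors and ubiquitin ligases, none was called or passed the adjusted p cutoff with edgeR, where 2.29% and 5.08% of all tested genes did. An unadjusted p under 0.05 was found for 4 and 5 of them and for 30.6% of all tested genes. The log2 fold changes from edgeR lay between −0.74 and 0.86 and between −0.74 and 0.70, short of the fold cutoff, so that none could be called. With DESeq2, under the same fold cutoff, none of them was called either. The calls therefore say nothing about smaller changes. Medians of the log2 fold change were −0.05 in both lists. Among the kinases, IKBKE, which encodes the IκB kinase ε, was the most abundant and had the lowest log2 fold change. It had 139 ± 18.3 CPM in the fresh and 83.4 ± 19.6 CPM in the preconditioned libraries (SD, n = 3 each), without overlap (log2 fold change −0.74, 95% interval −1.18 to −0.30, adjusted p = 0.0599 from edgeR). MAP3K8, a kinase gene that links the pathway to ERK, had the highest at 0.86 (95% interval 0.03 to 1.69, adjusted p = 0.154). TAB1, which encodes a partner of the kinase TAK1, had 36.8 ± 1.51 and 22.1 ± 4.41 CPM (SD, n = 3 each), also without overlap (log2 fold change −0.74, adjusted p = 0.0515 from edgeR). RIPK2 had the highest value among the adaptors, 0.70 (95% interval −0.04 to 1.44, adjusted p = 0.182). The most abundant adaptor gene by mean CPM over all libraries was TAB2, with a log2 fold change of −0.06. It was not the highest per length in FPKM.

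Of the 14 tested genes listed as other negative regulators, none was called, where 2.29% of all tested genes were. OTUD7B, which encodes Cezanne, a deubiquitinase that limits NF-κB, was the 1 gene that passed the adjusted p cutoff alone, where 5.08% of all tested genes did. It had 125, 116 and 95.6 CPM in the fresh and 158, 202 and 208 CPM in the preconditioned libraries, so that the groups did not overlap (log2 fold change 0.76, 95% interval 0.39 to 1.12, adjusted p = 0.0445 from edgeR). TNIP1, which encodes the A20 partner ABIN1 and was the most abundant, had a log2 fold change of 0.06 (95% interval −0.21 to 0.32). TRIB3 had the lowest at −1.83 (adjusted p = 0.170), with 18.4 CPM in preconditioned replicate 1, 3.55 and 1.81 CPM in the others and 26.3 to 30.4 CPM in the fresh libraries. It was called without preconditioned replicate 1.

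Of 15 tested receptor genes, 1 was called, where 2.29% of all tested genes were. IL1RL1, which encodes the IL-33 receptor ST2, fell from 20 to 27 counts per fresh library to 1, 3 and 3 counts in the preconditioned libraries (adjusted p = 0.0389 from edgeR). By summed counts scaled by TMM, this was a ratio of 8.61 of the fresh over the preconditioned group (95% exact interval 3.96 to 22.2, which covers counting error only). IL1R1, the receptor of IL-1β, had 30.3, 36.0 and 23.9 CPM in the fresh and 25.3, 18.8 and 15.0 CPM in the preconditioned libraries. The groups overlapped, and the log2 fold change was −0.61 (95% interval −1.16 to −0.06, adjusted p = 0.134 from edgeR). IL18R1 had the highest log2 fold change of the list, 1.14 (95% interval 0.47 to 1.80, adjusted p = 0.0585), and was called with DESeq2. The most abundant was TNFRSF12A, with a log2 fold change of 0.46 (adjusted p = 0.0956).

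**Figure D4:**
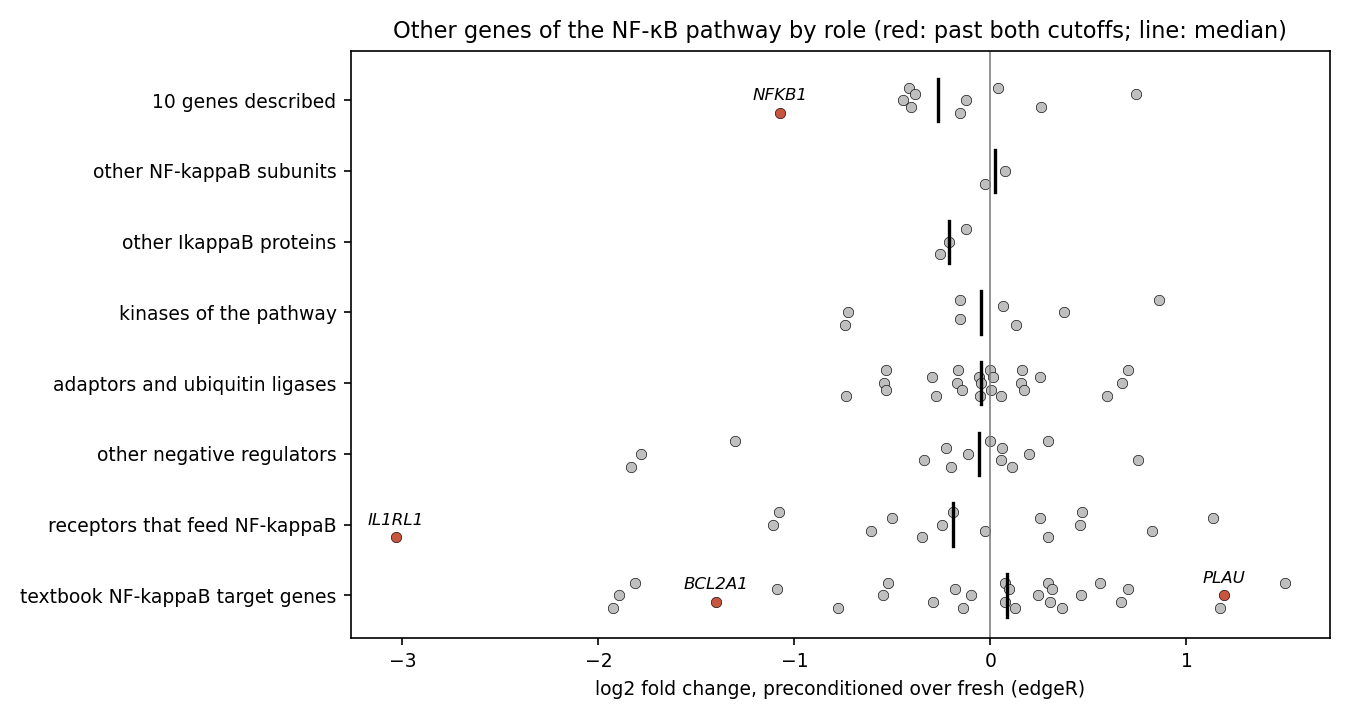
Log2 fold changes from edgeR for the 10 genes and for the tested genes of 7 lists of the pathway, with 1 point per gene, red points for called genes and a black line at each list's median. The medians lie between −0.27 and 0.08, and called genes are NFKB1, IL1RL1, BCL2A1 and PLAU; the fitted value of IL1RL1 rests on at most 3 counts per preconditioned library and depends on the prior count.

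Of 28 tested genes in a list of textbook NF-κB targets, 1 rose and 1 fell, where 2.29% of all tested genes were called in either direction. Log2 fold changes were above 0 for 16 and below 0 for 12, with a median of 0.08, and 49.5% of all tested genes were below 0. PLAU, which encodes the urokinase plasminogen activator, went up from 2238 ± 135 to 5115 ± 1205 CPM (SD, n = 3 each). The log2 fold change was 1.19 (95% interval 0.76 to 1.62, adjusted p = 0.0312 from edgeR). SAA3, an acute-phase gene with a level close to that of PLAU by mean CPM over all libraries, had 3249 ± 1571 and 3982 ± 1720 CPM (SD, n = 3 each) and overlapped (adjusted p = 0.657 from edgeR). BCL2A1, which encodes a BCL2 family survival protein, fell from 25.3, 26.9 and 23.7 CPM to 8.46, 13.4 and 6.91 CPM, a log2 fold change of −1.40 (95% interval −2.0 to −0.81, adjusted p = 0.0388).

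Among the cytokine genes of the list, IL6 and CXCL8 varied widely between libraries of both groups. IL6 had 8.84, 26.3 and 65.6 CPM in the fresh and 8.06, 16.7 and 2.34 CPM in the preconditioned libraries (log2 fold change −1.89, 95% interval −3.99 to 0.20, adjusted p = 0.197 from edgeR). CXCL8, a neutrophil chemokine gene, had 206 to 628 and 139 to 748 CPM (adjusted p = 0.779). IL1B had 4.54 to 5.29 CPM in the fresh libraries and 2.53, 15.1 and 5.63 CPM in the preconditioned libraries (adjusted p = 0.474). The intervals of these 3 genes hold changes in either direction. IL1A, the gene of the other IL-1 receptor agonist, was far more abundant and less spread, at 659 to 1005 CPM in the fresh and 764 to 1107 CPM in the preconditioned libraries (log2 fold change 0.31, 95% interval −0.19 to 0.80, adjusted p = 0.362 from edgeR). CCL2, a monocyte chemokine gene, had 18.5 ± 13.1 CPM in the fresh and 5.26 ± 3.82 CPM in preconditioned libraries (SD, n = 3 each), which overlapped (log2 fold change −1.81, 95% interval −3.56 to −0.07, adjusted p = 0.153). The extremes of the list were F3, the tissue factor gene, at 1.504 (adjusted p = 0.205) and TNFSF10, the TRAIL gene, at −1.92 (adjusted p = 0.226), and both overlapped.

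Over the lists of other pathway genes together, BCL2A1, IL1RL1 and PLAU were called. DESeq2 added CCL2, IL18R1 and IRF1, against a background of 7.78% of genes called by that tool. Without preconditioned replicate 1, IL18R1, IRF1, TLR2, TNFSF10 and TRIB3 were called in addition, where 9.99% of all genes were. Without any 1 of the other 5 libraries, none of these genes was called, where at most 0.468% of all genes were. The deposited table also assigns 98 genes to the KEGG NF-kappa B pathway, which were counted after the results were seen. Of 74 tested, 4 were called, where 2.29% of all tested genes were, namely PLAU, which rose, and BCL2A1, NFKB1 and PARP1, which fell. The median log2 fold change of the 74 was −0.10, with 33 above 0 and 41 below (49.5% of all tested genes were below).

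Many NF-κB genes are also expressed in leukocytes and fibroblasts, and in bulk RNA fewer cells of a type cannot be told apart from less RNA per cell. The 15 leukocyte markers matched by symbol summed to 162 to 196 CPM in the fresh libraries, and to 192, 398 and 324 CPM in preconditioned replicates 1, 2 and 3. CD68, with 3369 to 9369 counts per library, made up 47.7% to 88.9% of these sums, and LAPTM5 8.01% to 43.2%. Both genes overlapped between the groups, CD68 at 1.14 on the log2 scale (adjusted p = 0.0848 from edgeR) and LAPTM5 at −0.28 (adjusted p = 0.638). Of the 10 tested leukocyte markers, 8 had log2 fold changes above 0 and 2 below, with a median of 0.59. Only CD74, with 4 to 45 counts, did not overlap in CPM, where this held for 36.7% of all tested genes. It was higher in the preconditioned group (log2 fold change 1.3, adjusted p = 0.224 from edgeR). PTPRC, the common leukocyte antigen, had 7 to 47 counts and CD3E at most 1. The 11 stromal fibroblast markers summed to 491 to 1070 CPM in the fresh and 815 to 1672 CPM in the preconditioned libraries. Log2 fold changes were above 0 for 7 and below 0 for 4 of them, and the groups overlapped for all of them except FAP. FAP had 1.61 ± 1.11 CPM in the fresh and 5.66 ± 1.78 CPM in preconditioned libraries (SD, n = 3 each), without overlap (log2 fold change 1.81, adjusted p = 0.0756 from edgeR). The 8 vascular markers summed to at most 15.5 CPM and the 7 melanocyte markers to at most 6.39 CPM in any library. The 3 markers of conjunctival epithelium matched by symbol summed to 394 to 1217 CPM per library, and each overlapped between the groups. KRT7 made up most of these sums, at 388 to 1200 CPM. KRT13 had 3.92 to 61.1 CPM and KRT4 had 1.55 to 44.2 CPM. None of the markers was called with edgeR. CD68, FAP and the melanocyte gene TYRP1 were called higher with DESeq2, where 7.78% of all genes were called, and CD68, TYRP1 and the vascular gene PECAM1 (beside PAX6 and TP63) without preconditioned replicate 1, where 9.99% were. The other tested genes of the vascular list (ERG and EMCN) and of the melanocyte list (MITF) had log2 fold changes of −0.08, −0.27 and −0.61. The part of these cell types in the differences was not tested.

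Genes whose pattern over the 6 libraries was most like the mean standardized log2 CPM of the 10 genes were VAC14 (Pearson's r 0.994), NEURL3 (0.992), FMR1 (0.988), DGKE (0.988) and NPM3 (0.987). These correlations describe 6 libraries that share the group difference, and none of the 5 genes passed the test, with adjusted p values from edgeR of 0.109 to 0.362.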

How the data were processed

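RNA-seq libraries of 3 fresh and 3 preconditioned samples were grouped by their titles, and all columns were mapped. The authors aligned the reads with hisat2 2.1.0 and deposited raw counts per gene from htseq-count 0.11.2, together with FPKM values that equal each count over the library total and 1 length per gene. The build, annotation and strand setting are not given in the sources used here, so no coordinates or sequences are printed. All 10 genes matched a RefSeq table of the assembly mOryCun1.1 by identifier and symbol.

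Tests were run on the counts with edgeR 4.0.16 in R 4.3.3 (filterByExpr, TMM, robust quasi-likelihood test, condition as the only factor), which tested 15029 genes. Intervals use the standard error derived from the F statistic. Scaling relied on 31952352 to 34327534 counts per library. The fits were run on simulated counts as a self-check. No simulated library was set apart from its group as preconditioned replicate 1 was, so the check does not cover that feature. Libraries of a group differed beyond sampling noise, with a chi-square per degree of freedom of 38.4 to 117. Alternatives were DESeq2 1.42.0, its size factors, library size alone, other filters, the replicate number as a block, each library left out, limma 3.58.1 on log2(FPKM + 1) and log2(FPKM + 0.1), no fold cutoff and glmTreat. The genes and lists were chosen with earlier results of these data known. Named genes were the 10, each list's called genes, its extremes and its most abundant gene, IL1B, IL6, CXCL8 and IL1R1, the marker genes with most counts and the 5 genes most alike in pattern. SAA3, IL1A, CCL2, FAP, LAPTM5, TYRP1, PECAM1, ERG, EMCN, MITF, PAX6, TP63, IRF1, TLR2, PARP1 and the rare marker genes were named after their values were seen. So were CD74, EPCAM, ITGB4, KRT4 and KRT13.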

Additional observations from a re-analysis of the deposited data

How the results depend on the processing

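Of the 10 genes, 9 kept their direction in the 14 alternatives that refit the fold change. The exception was BIRC3, whose log2 fold change of 0.04 became −0.13 with library size alone, −0.085 with limma on log2(FPKM + 1) and −0.0867 on log2(FPKM + 0.1), and it lay between −0.0973 and 0.3228 when each library was left out, below 0 without fresh replicate 1 or 3. The number of the 10 genes called was 1, with 0 under the replicate block or glmTreat, 2 with no fold cutoff, and 0 to 1 when each library was left out. Over all genes, 344 were called, with 1190 by DESeq2, 565 with library size alone, 30 with the replicate block, 590 with limma on log2(FPKM + 0.1), 24 with glmTreat, 763 with no fold cutoff, and 14 to 1546 when each library was left out, the highest without preconditioned replicate 1. Higher genes made up 47.4% of these calls, 25.1% with library size alone, 27.2% with limma on log2(FPKM + 1), 23.9% on log2(FPKM + 0.1), 33.3% with glmTreat and 56.7% with no fold cutoff, and 31.2% to 61.1% when each library was left out, the highest without preconditioned replicate 3 (44 higher, 28 lower). Of the other pathway genes, 3 were called, with 6 by DESeq2, 1 with limma on log2(FPKM + 1), 0 with the replicate block or glmTreat, and 0 to 8 when each library was left out. The median log2 fold change of the 10 genes stayed below 0 throughout.

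Same-numbered libraries did not share their deviations from the group means, with correlations of −0.073, −0.080 and −0.12, and 0 libraries correlated best with their own number. The highest correlations were between libraries of different numbers, at 0.263, 0.157 and 0.269. With deviations from means of 3 libraries, this check cannot show or exclude a shared animal. Whether same-numbered libraries share an animal is not given in the sources used here, and the libraries were treated as unpaired. Under the block the log2 fold change of NFKB1 was −1.13, with an adjusted p of 0.0987 from edgeR. Without the length in FPKM, 2 of the 10 genes kept their rank by level in the fresh group. The effect of depth was not tested.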
